A study of Mus musculus with 8 samples.

Results

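The macula densa nuclei of mouse kidney were taken from 8 single-nucleus RNA-seq libraries by 3 conditions on unique molecular identifiers (UMIs, the counted transcripts): at least 1 UMI of Slc12a1, at least 1 UMI of Nos1, and at least 3 UMIs of Nos1, Pappa2 and Ptgs2 together. Of 81391 nuclei that passed the filters (500 or more genes, 800 or more UMIs, and no more than 2% mitochondrial UMIs), 131 met them, or 0.161%. The level of these 4 genes in the members was therefore set by the choice and is described without a test. The members held 652413 UMIs in all, with a median of 4362 UMIs (range 1278 to 12808) and 2198 genes a nucleus, against medians of 3683 and 1853 over all nuclei kept.

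The libraries came from male mice on a C57BL/6J background, 2 libraries for each combination of genotype and time. Ctrl mice were Bmal1lox/lox littermates, and cKOt mice were Bmal1lox/lox/Pax8-rtTA/LC-1, in which the Pax8 promoter drives a doxycycline-dependent activator in renal tubules and LC-1 carries the Cre recombinase that answers to it. All mice, Ctrl included, drank doxycycline at 2 mg/ml with 20 mg/ml sucrose for 2 weeks from 8 weeks of age and were sampled at 14 weeks, under 12 h of light and 12 h of darkness, at 4 h (ZT4) or 16 h (ZT16) after lights on. Nuclei were sorted by DAPI, a DNA stain, and sequenced from the 3′ end of transcripts. Each library came from 1 animal. A limit of the model is that Cre acts only where the Pax8 promoter is active, and which cells recombined was not measured here. Pax8 itself was detected in the members. In CPM (UMIs of the gene per 1000000 UMIs of the nuclei summed in a library, not divided by gene length) it was at 131 and 140.0 CPM in Ctrl at ZT4, 151 and 174 in Ctrl at ZT16, 175 and 273 in cKOt at ZT4 and 374 and 448 in cKOt at ZT16, against 220.4 to 279 CPM in nuclei of the thick ascending limb with at least 10 Slc12a1 UMIs. Pax8 was lower in the members than in TAL by edgeR (log2 difference -0.74 ± 0.17, adjusted p = 0.000235, or -0.48 ± 0.16, adjusted p = 0.0251, against TAL with at least 10 Slc12a1 UMIs), and did not pass by DESeq2 (-0.53, adjusted p = 0.164). In Ctrl all members' values lay below all TAL values, and in cKOt the ranges overlapped. The cKOt members lay above the Ctrl members, though Pax8 passed no test between genotypes. It was named after its values were seen.

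The macula densa is a plaque of epithelial cells at the end of the thick ascending limb (TAL), where the tubule returns to its own glomerulus. Its cells take up sodium chloride through NKCC2, the product of Slc12a1, and answer to its concentration in the tubular fluid. A high concentration leads them to release ATP and adenosine, which constrict the afferent arteriole, while a low concentration leads to prostaglandin E2, made by the cyclooxygenase encoded by Ptgs2, and to renin release from the neighbouring juxtaglomerular cells. Nos1 encodes the neuronal nitric oxide synthase, whose product counters the constriction. Pappa2 encodes a secreted protease that frees insulin-like growth factor (IGF) from its binding proteins.

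Slc12a1 was abundant in the members, with a median of 58 UMIs a nucleus (range 1 to 210). Nos1 had a median of 4 UMIs (range 1 to 26) and Pappa2 a median of 2 (range 0 to 98), with at least 1 Pappa2 UMI in 90 members (68.7%). Ptgs2 was found in 21 members (16.03%), at no more than 2 UMIs. Nos1, Pappa2 and Ptgs2 occurred together in 14 members, Nos1 and Pappa2 without Ptgs2 in 76, Nos1 and Ptgs2 without Pappa2 in 7, and Nos1 without the other two in 34. So the members were mostly Nos1 and Pappa2 nuclei, and the conditions were seldom met through Ptgs2. Of all UMIs in the 81391 nuclei, the members held 669 of 921 for Nos1 (72.6%), 1116 of 1364 for Pappa2 (81.8%), 23 of 512 for Ptgs2 (4.49%) and 0.892% for Slc12a1. Most Ptgs2 of these kidneys thus lay outside the members.

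Robo2, a guidance receptor for SLIT proteins that the conditions do not use, gives a view of the threshold. It was detected in 97.7% of the members, in 95% of the 20 members just inside the threshold (a sum of 3), in 86.2% of the 29 nuclei just outside it (Nos1 present, a sum of 2), in 37.1% of the 140 nuclei with Nos1 and a sum of 1, and in 54.2% of 24 nuclei with Slc12a1 and a sum of at least 3 but no Nos1. In TAL nuclei with at least 10 Slc12a1 UMIs and none of the other 3 genes the share was 11.7%. In proximal nuclei (at least 5 Lrp2 and 1 Slc34a1 UMIs, at most 2 Slc12a1 UMIs and none of Nos1, Pappa2 and Ptgs2) the share was 8.94%, at a median depth of 6338 UMIs against 4362 in the members and 4038 in TAL. Other genes did not all place the 29 nuclei just outside the threshold in the same way. Enox1 was found in 79.3% (members 96.2%, TAL 30.9%) of them, but Calcr in 6.9% (members 23.7%, TAL 0.863%) and Avpr1a in 0 of 29, which allows a share of up to 10.3% (members 12.98%, TAL 0.363%), and 9 of the 29 were called doublets, against 12 of the 131 members. Nos1 itself was found in 0.44% of all nuclei, members included, and in 0.375% of nuclei with at least 5 Lrp2 and 1 Slc34a1 UMIs whatever their Slc12a1 or Nos1 count, a segment taken here to lack Nos1.

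Slc12a1 is a weak mark in these libraries, since at least 1 UMI of it was found in 64.2% of all nuclei and in 61.1% of nuclei chosen as proximal tubule by Lrp2 and Slc34a1 alone, with no limit on Slc12a1, a segment that lacks NKCC2. Only 3 members had fewer than 10 Slc12a1 UMIs. Of these, 2 had 1, both from the same library (cKOt ZT16, replicate 1), both without Robo2 or Enox1, and 1 of them with 53 UMIs of Lrp2 and 84 of Slc34a1. Scrublet called 12 members doublets (9.16%, against 10.6% of TAL nuclei with at least 10 Slc12a1 UMIs and 5.37% of all nuclei). Proximal tubule markers, 7 of 7 detected, summed to 738 to 2729 CPM in the members of each library and 1284 to 1844 in TAL. The 6 endothelial markers summed to 43.4 to 808 CPM in the members and 129 to 209.8 in TAL. The 6 juxtaglomerular and smooth muscle markers summed to 0 to 33.5 CPM in the members and 3.46 to 12.3 in TAL (12.3 and 6.06 pooled), with Ren1, the renin gene, in 2 members, Myh11 in 3, and Akr1b7 and Rergl at 0. The 6 mesangial and stromal markers summed to 0 to 731 CPM in the members and 61.4 to 95.4 in TAL, the highest in cKOt at ZT16, replicate 2. The 5 podocyte markers summed to 0 to 189 CPM in the members and 14.8 to 34.02 in TAL and the 10 collecting duct markers to 21.8 to 255 CPM in the members and 72.4 to 151 in TAL, both highest in Ctrl at ZT4, replicate 2. Distal tubule markers summed to 335 to 4788 CPM (546 to 1799 in TAL), the highest in cKOt at ZT4, replicate 1, where 1 nucleus held 244 of the UMIs. Slc12a3 and Slc8a1 of this list were in 22.9 and 64.1% of members and 21.9 and 58.9% of TAL nuclei. In the comparison with TAL below, both were nonetheless lower in the members under all 6 settings (edgeR log2 difference -2.70 ± 0.19 and -2.52 ± 0.15). The 4 thin limb markers summed to 16.8 to 86.8 CPM in the members and 43.3 to 254 in TAL (Bst1 and Lypd2 at 0), and the 9 immune markers to 0 to 32.6 CPM in the members and 14.1 to 23.9 in TAL, where Cd74 and Cd247 were each found in 4 members and C1qa, C1qc, Tyrobp, Cd79a and Nkg7 were at 0. Pvalb and Trpv5 of the distal list were at 0 too. The limit for a count of 0 over all members, 4.6 CPM, lies above the TAL level of each of these markers at 0, so their zeros show no difference from TAL. The part of these other cell types in the results was not tested. No barcode was shared between the members of different libraries.

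Each library gave 11 to 24 members. Their share of the nuclei kept was 0.111 and 0.241% in Ctrl at ZT4, 0.103 and 0.177% in Ctrl at ZT16, 0.145 and 0.209% in cKOt at ZT4, and 0.217 and 0.1% in cKOt at ZT16. Replicates of a group lay as far apart as groups, and all groups overlapped. The mean share was 0.168 ± 0.0555% in cKOt (SD, n = 4) and 0.158 ± 0.0642% in Ctrl (SD, n = 4; two-sided exact permutation test, p = 0.8), and 0.149 ± 0.0573% at ZT16 and 0.176 ± 0.0591% at ZT4 (n = 4 each, exact p = 0.514). Per 100 nuclei with at least 3 Slc12a1 UMIs there were 0.594 ± 0.209 members at ZT16 and 0.94 ± 0.0949 at ZT4 (SD, n = 4 each, exact p = 0.0286). In cKOt at ZT16, replicate 1, 2 of the 19 members had fewer than 3 such UMIs, and with members counted only from 3 the share at ZT16 was 0.574 ± 0.189% (exact p = 0.0286). The call between times thus depended on the denominator, which was 1371 to 2385 nuclei a library at ZT4 and 2233 to 3162 at ZT16. The smallest p that 70 assignments allow is 0.0286. Fewer macula densa cells and less Nos1 RNA per cell cannot be told apart by this count.

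**Figure D1:**
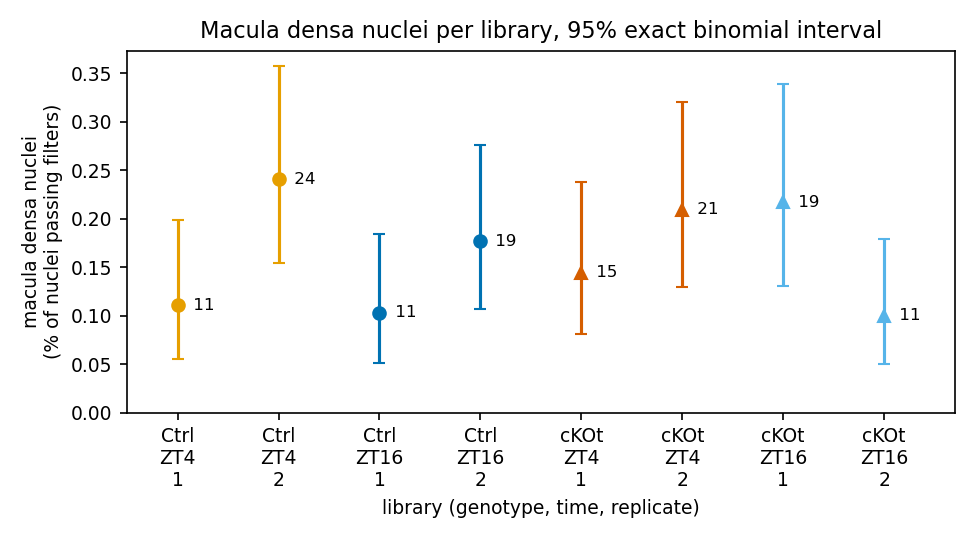
Share of nuclei passing the filters that met the conditions for macula densa (y axis, percent) in each of the 8 libraries (x axis), with the 95% exact binomial interval, which covers counting error only, and the number of members beside each point. Circles are Ctrl and triangles cKOt, and the shares lie between 0.1 and 0.241% with intervals that overlap.

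To describe what sets the members apart from the epithelium around them, UMIs were summed per library over the members and over TAL nuclei, and compared with edgeR's quasi-likelihood test with the library as a block and Benjamini-Hochberg adjustment over all genes tested. The 4 genes of the conditions were left out. TAL nuclei with at least 3 Slc12a1 UMIs and none of Nos1, Pappa2 or Ptgs2 numbered 17475, but 6464 of them (36.99%) had fewer than 10 Slc12a1 UMIs, so a TAL group of 11011 nuclei with at least 10 was added after the values had been seen. Of 17160 genes, 536 were higher in the members (3.12% of those tested) and 2035 lower (11.9%), and with the TAL group of at least 10 Slc12a1 UMIs 575 (3.7%) and 1824 (11.7%) of 15546. DESeq2 called 702 and 854, and edgeR with library totals in place of TMM factors 826 and 1123, so the balance of directions depended on scaling. For that reason the genes below are, unless said otherwise, among those called in the same direction under all 6 settings (edgeR as above, DESeq2, TAL with at least 10 Slc12a1 UMIs scaled by TMM or by library totals, TAL with Cldn16, and at least 10 Slc12a1 UMIs in both kinds of nuclei without doublets): 245 higher (2.48% of 9865 tested in all 6) and 478 lower (4.85%). By biotype these were 232 higher and 438 lower mRNAs, and 13 higher and 37 lower lncRNAs. Levels are given as CPM and differences as log2 of members over TAL with at least 3 Slc12a1 UMIs, ± SE. The TAL levels printed beside them are those with at least 10. Markers of other cell types were among the lower calls: 7 of 7 proximal, 5 of 6 endothelial, 4 of 10 collecting duct, 3 of 4 thin limb and 3 of 6 distal. With the TAL group of at least 10 Slc12a1 UMIs these numbered 3, 0, 1, 1 and 2. Slc14a2, Slc12a3 and Slc8a1 were lower under all 6 settings, and no marker of another cell type was higher. Their part in the log2 differences was not tested.

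Robo2 ranged over the 8 libraries from 4367 to 6502 CPM, with a median of 5321, and in TAL over 46.6 to 96.3 CPM. Every library's members were far above every TAL sum, and the log2 difference was 5.22 ± 0.13. Ndst4, which encodes an enzyme that modifies heparan sulfate, ranged from 365 to 1153 CPM, with a median of 622, against 1.32 to 4.59 CPM in TAL (log2 difference 8.20 ± 0.21). It was detected in 80.2% of members and 0.572% of TAL nuclei, and the 131 members held 474 of its 1048 UMIs in all nuclei (45.2%). Adarb2, a brain relative of the RNA-editing deaminases, ranged from 331 to 1392 CPM, with a median of 469.9 (1.24 to 3.08 CPM in TAL; 7.65 ± 0.21). Unc5d, a netrin receptor, ranged from 231 to 818 CPM, with a median of 477 (1.7 to 5.5 CPM in TAL; 7.23 ± 0.22). The members held 28.1% of all Unc5d UMIs and 23.8% of those of Adarb2, but only 4.57% of those of Robo2. Ndst4, Unc5d and Adarb2 were thus nearer to being restricted to the members than Robo2, which other nuclei also contained.

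Among signalling genes, Tshr, the receptor for thyrotropin, ranged from 537 to 980.0 CPM, with a median of 738, against 6.51 to 16.4 CPM in TAL (log2 difference 5.52 ± 0.18), and was detected in 81.7% of members. Pde10a, a phosphodiesterase of cyclic AMP and cyclic GMP, ranged from 1746 to 3778 CPM, with a median of 2371, against 15.02 to 165 CPM (4.94 ± 0.14). The groups did not overlap for either gene. Of the others picked by smallest p, the log2 difference was 4.43 for Plcxd3, 4.79 for Luzp2, 4.20 for Kcnc2, a voltage-gated potassium channel, and 3.33 for Thsd4, a secreted matrix protein. These 4 were each at or above 74.6 CPM in every library's members. Vash2 and Slc4a10 stood out by restriction and were chosen for it after their values were seen: the members held 35.9% of 142 Vash2 UMIs and 22.4% of 340 Slc4a10 UMIs, the latter a sodium-bicarbonate transporter best known from neurons.

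Of 13 known macula densa genes outside the conditions, 12 were tested, 6 were higher and 1 lower (median log2 difference 0.98, all genes -0.41), or 5 and 2 of 11 higher and lower with the TAL group of at least 10 Slc12a1 UMIs. Slc9a2 and Robo2 were the genes of this list that were higher under all 6 settings. Slc9a2, the sodium-proton exchanger NHE2, ranged from 117 to 337 CPM, with a median of 215, and exceeded TAL (37.1 to 67.2 CPM) in all 8 libraries (log2 difference 1.94 ± 0.21). Enox1 ranged from 1189 to 2227 CPM, with a median of 1946, against 253 to 524 CPM (2.50 ± 0.13). Against TAL nuclei with Cldn16 it did not pass (0.26 ± 0.12, edgeR adjusted p = 0.133), and those nuclei held it in 68.3% of cases, against 96.2% of members. Avpr1a, the V1a vasopressin receptor, had 21 UMIs in 12.98% of members and ranged from 8.24 to 75.99 CPM, with a median of 21.8, against 0 to 2.14 CPM (4.31 ± 0.46; below the count minimum in the TAL group with at least 10). Ramp3 and Mcub, at 13 and 14 UMIs, were higher with both TAL groups (1.55 and 3.32). Ptger3, the EP3 receptor of prostaglandin E2, did not pass (-0.01 ± 0.14, edgeR adjusted p = 0.984), and against TAL with at least 10 Slc12a1 UMIs it was lower (-0.73 ± 0.13). Oxtr and Cxcl14 had no UMI in any member, and the limit taken here for a count of 0, 3 UMIs over all members (close to the one-sided 95% Poisson limit), is 4.6 CPM. That is above their pooled TAL levels of 0.0192 and 2.27 CPM, so no difference from TAL was detectable for either.

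In the IGF axis, on which PAPPA2 acts, 1 gene was higher and 6 lower of 12 tested (median log2 difference -1.04, all genes -0.41), or 2 and 4 of 10 with the TAL group of at least 10 Slc12a1 UMIs. The higher gene was Pappa, a paralog of Pappa2 that also cleaves IGF-binding proteins. It ranged from 589.6 to 1596 CPM, with a median of 929, against 35 to 67.7 CPM in TAL (log2 difference 3.93 ± 0.15), and was detected in 88.5% of members, more often than Pappa2 itself. Igf1 had no UMI in the members, whereas TAL had 2286 UMIs (23.9 to 56.2 CPM over libraries), so it was at least 9.56-fold lower against a floor of 3 UMIs over all members. The receptor Igf1r ranged from 388 to 789 CPM, with a median of 571, against 1039.9 to 1483 CPM (-1.47 ± 0.14), and its adaptor Irs1 from 0 to 98.8 CPM, with a median of 65.3, against 211 to 284 CPM (-1.99 ± 0.25). Igfbp3, Igfbp5 and Insr were lower in the first comparison (-1.29, -0.80 and -0.51) but not with DESeq2, and with the TAL group of at least 10 Slc12a1 UMIs Insr was still lower while Igfbp5 was at 0.19 and did not pass.

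In the prostanoid list 1 of 11 tested genes was higher and 1 lower (median log2 difference -0.37, all genes -0.41), or 2 and 1 of 11 higher and lower with the TAL group of at least 10 Slc12a1 UMIs. Pla2g4a, the cytosolic phospholipase A2 that frees arachidonic acid for cyclooxygenase, ranged from 304 to 567 CPM, with a median of 420.4, against 77.5 to 101 CPM (2.23 ± 0.17). In the nitric oxide list no gene tested was higher and 3 of 15 were lower (median log2 difference -0.17, all genes -0.41), or 0 and 1 of 14 higher and lower with the TAL group of at least 10 Slc12a1 UMIs, of which Nos1ap, an adaptor of the neuronal synthase, was lower in all 6 settings (-0.81 ± 0.16, 175 to 385 CPM against 451 to 560.3 CPM), while Prkg1, a cyclic GMP-dependent kinase, turned from -0.91 to 0.37 with the TAL group of at least 10 Slc12a1 UMIs. Of the ATP and adenosine list 2 of 15 were higher and 2 lower (median log2 difference -0.43, all genes -0.41), or 3 and 1 of 14 higher and lower with the TAL group of at least 10 Slc12a1 UMIs. Slc29a1, the equilibrative nucleoside transporter ENT1 that moves adenosine across membranes, ranged from 43.7 to 101 CPM, with a median of 75.3, against 6.16 to 19.4 CPM (2.14 ± 0.33), without overlap. Panx1, an ATP-releasing channel, rested on 10 UMIs in the members (3.41 ± 0.59). So Pla2g4a and Slc29a1 were the genes of these 3 lists that were higher in all 6 settings. Of 17 hormone receptors, 2 were higher and 3 lower (median log2 difference -0.25, all genes -0.41), or 1 and 3 of 15 higher and lower with the TAL group of at least 10 Slc12a1 UMIs. Calcr, the calcitonin receptor, ranged from 65.1 to 158 CPM, with a median of 90.4, against 1.35 to 4.19 CPM (4.64 ± 0.32), and was found in 23.7% of members. The mineralocorticoid receptor Nr3c2 and the glucocorticoid receptor Nr3c1 did not pass (0.12 ± 0.14 and -0.35 ± 0.18).

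Of the salt-transport regulators, 1 of 14 was higher and 5 lower (median log2 difference -0.46, all genes -0.41), or 1 and 7 of 14 higher and lower with the TAL group of at least 10 Slc12a1 UMIs. Klhl3, which targets WNK kinases for degradation, ranged from 175 to 509 CPM, with a median of 359, against 135 to 173 CPM (0.84 ± 0.16). The WNK and SPAK kinase genes Wnk1, Wnk4 and Stk39, which activate NKCC2, did not pass in the main comparison (0.24 ± 0.13, -0.37 ± 0.20 and -0.23 ± 0.14), while with the TAL group of at least 10 Slc12a1 UMIs Wnk4 and Stk39 were lower (-0.89 and -0.78). Nedd4l, a ubiquitin ligase acting on sodium channels and transporters, was lower (-1.18 ± 0.14), as was Slc9a3, the NHE3 exchanger of the TAL and proximal tubule (-3.63 ± 0.26, 0 to 65.5 CPM against 318 to 536 CPM). The members thus had more NHE2 and less NHE3 transcript than TAL.

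Of 23 TAL genes tested, 14 were lower in the members and 3 higher (median log2 difference -1.17, all genes -0.41), or 2 and 17 of 23 higher and lower with the TAL group of at least 10 Slc12a1 UMIs. Egf, the epidermal growth factor precursor, ranged from 29.8 to 395 CPM, with a median of 186, against 4443 to 7795 CPM in TAL (log2 difference -4.61 ± 0.15), and was detected in 36.6% of members and 97.5% of TAL nuclei. Umod, the gene of uromodulin, ranged from 0 to 185 CPM, with a median of 80.98, against 1317 to 2911 CPM (-4.01 ± 0.18). The highest member sum of either gene was below the lowest TAL sum. Esrrb, an orphan nuclear receptor, ranged from 0 to 41.2 CPM, with a median of 23.7, against 439 to 723 CPM (-4.05 ± 0.26), whereas its relative Esrrg was in 100% of members and did not pass (0.26 ± 0.10). Slc5a3, the myo-inositol transporter, was lower (-2.95 ± 0.18). Of genes for the paracellular and basolateral paths of the TAL, Cldn19 (-3.88), Kcnj10 (-3.23), Kcnj16 (-0.76), Atp1b1 (-1.25) and Tmem207 (-4.90) were lower. Kcnj1, the apical ROMK channel, and Casr, the calcium-sensing receptor, did not pass (-0.43 ± 0.17 and -0.25 ± 0.17), though against TAL with at least 10 Slc12a1 UMIs both were lower (-1.08 and -0.97). The transcription factors Irx1 and Irx2, in the TAL list, were higher in the members (2.55 ± 0.23 and 2.32 ± 0.23), at 132 to 318 and 123 to 262 CPM against 34.5 to 46.7 CPM and 39.2 to 61.2 CPM.

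**Figure D2:**
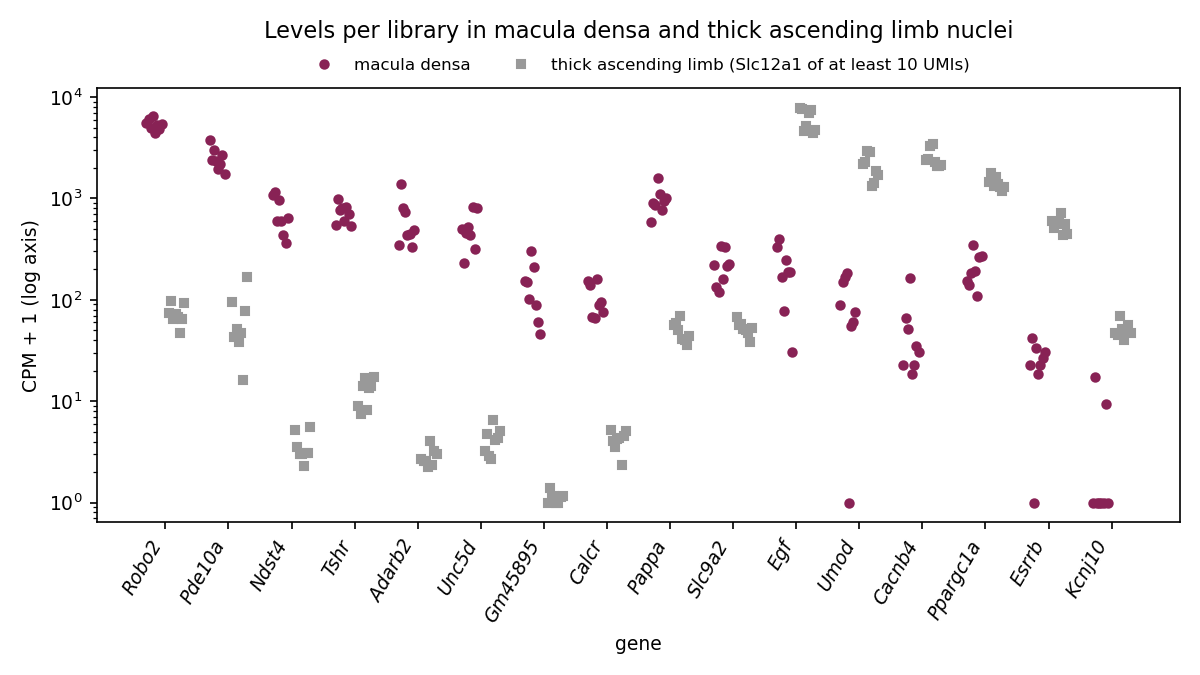
Level of 16 genes (x axis) as CPM + 1 on a log axis (y axis) in each of the 8 libraries, for the summed macula densa nuclei (circles) and the summed TAL nuclei with at least 10 Slc12a1 UMIs (squares). For Robo2 to Slc9a2 every circle lies above every square, and for Egf to Kcnj10 every circle lies below every square.

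Other genes lower in the members included Cacnb4, a calcium channel subunit (-5.22 ± 0.19, 17.5 to 163 CPM against 2079.6 to 3429 CPM), Abca13 (-5.41), Sgcz (-4.95), Rgs6 (-4.57), Pde1a (-2.68), Bckdhb (-2.82) and Ank3 (-2.03). Pcsk6, a proprotein convertase, had 2 UMIs in the members and 343 to 539 CPM in TAL. In the list of mitochondrial oxidation 8 of 15 genes were lower and none higher (median log2 difference -0.71, all genes -0.41), or 12 lower with the TAL group of at least 10 Slc12a1 UMIs, and DESeq2 called 2 of the 8. Ppargc1a, the coactivator of mitochondrial biogenesis, ranged from 109 to 347 CPM, with a median of 189, against 1193 to 1764 CPM (-2.56 ± 0.16), and Esrra, the nuclear receptor it works with, from 0 to 65.5 CPM, with a median of 29.2, against 89.3 to 121 CPM (-2.28 ± 0.33). Pdk4, an inhibitor of pyruvate oxidation from the output list, had no UMI in the members. It was at least 5.89-fold lower than in TAL of both genotypes pooled, against the floor of 3 UMIs.

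Of 32 axon guidance and neurite genes tested, 4 were higher and 9 lower (median log2 difference -0.37, all genes -0.41). With the TAL group of at least 10 Slc12a1 UMIs the balance turned, to 6 higher and 5 lower of 31 (median 0.10), and under all 6 settings 4 were higher and 4 lower. The higher ones were Robo2 and Unc5d, described above, Slit2, the ligand of ROBO receptors (1.63 ± 0.11, 3122 to 5937 CPM against 1309 to 2024 CPM), and Sema5a, a semaphorin (0.74 ± 0.14). Lower in all 6 settings were the netrin Ntn4 (-2.89 ± 0.24), the ephrin Efna5 (-0.91 ± 0.15), the neuregulin Nrg1 (-2.14 ± 0.24) and Map2, a microtubule-associated protein of dendrites (-1.31 ± 0.25). Ntn1 was lower in the first comparison and higher with library totals, so no direction is given for it. The clock list had 2 higher and 6 lower of 20 tested (median log2 difference -0.34, all genes -0.41). The clock and corticosteroid output list had 1 higher and 7 lower of 12 (median -1.14). With the TAL group of at least 10 Slc12a1 UMIs these were 2 and 4, and 0 and 3. Under all 6 settings Bhlhe40 was higher, and Npas2 and Pdk4 were lower. This comparison pools both genotypes. In TAL with at least 10 Slc12a1 UMIs, Npas2 and Pdk4 were called between genotypes at ZT4, with Npas2 higher in cKOt (5.15 ± 0.22). The part of the cKOt TAL in their difference from the members was not tested. Among immediate early genes 1 of 9 (Nr4a1) was higher and none lower, and 0 of 8 heat shock genes passed.

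Among lncRNAs, 62 of 2802 tested were higher and 184 lower, against 470 and 1836 of 14215 mRNAs. Over all genes tested 3.12% were higher and 11.9% lower, so lncRNAs were called less often in either direction. The biotypes were not matched on counts, and a difference is harder to call at low counts. The paper reports that most lncRNAs were lowly expressed, so these shares do not show that lncRNAs differed less. Gm45895 ranged from 44.8 to 304 CPM, with a median of 124, against 0 to 0.399 CPM in TAL (log2 difference 9.58 ± 0.36), and the members held 89 of its 159 UMIs in all nuclei (55.97%), the highest such share among the genes named here other than Nos1 and Pappa2. It was found in 32.8% of members. Gm45847 (2.54 ± 0.23), Gm40999 (2.48 ± 0.25), Gm12536 (2.74 ± 0.35) and 9530026P05Rik (0.97 ± 0.14) were also higher, and D630024D03Rik (-3.43 ± 0.35), Mir99ahg (-1.45 ± 0.15), Gm17276 (-2.38 ± 0.25) and 4732465J04Rik (-4.24 ± 0.47) lower. Gm45792 (-3.37 ± 0.34) was lower in the main comparison but was not called in all 6. The sources used here do not say whether counting used strand or introns, so reads of a lncRNA and of an overlapping gene cannot be told apart.

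**Figure D3:**
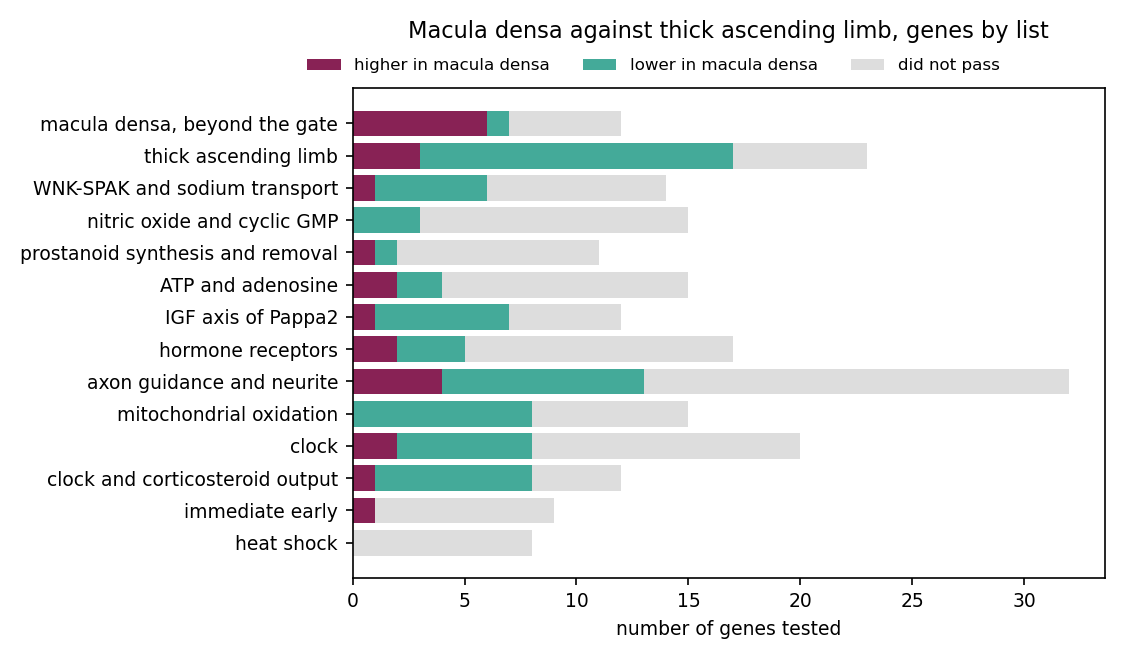
Genes of each list tested between macula densa and TAL (x axis, number of genes; y axis, lists), split into those higher in macula densa, those lower and those that did not pass an edgeR adjusted p of 0.05. The TAL list has 14 lower and 3 higher of 23, the mitochondrial list 8 lower of 15, and the heat shock list none of 8.

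Members also differed among themselves. By Pappa2, 41 had none, 42 had 1 to 4 UMIs and 48 had 5 or more. Over these 3 classes in that order, summed Egf was 398, 138 and 78.5 CPM, Ptger3 446, 600.4 and 1103 CPM, and Calcr 69.3, 84.1 and 145 CPM. Summed Egf thus was lowest, and summed Ptger3 and Calcr highest, where Pappa2 was highest. Egf was detected in 51.2, 28.6 and 31.25% of nuclei, so its detection did not fall between the upper classes. Lrp2, a proximal tubule marker, was at 597, 666 and 141 CPM, and the part of other cells' RNA in these orders was not tested. Unc5d was 229, 708 and 573 CPM, with no such order between the upper classes. Enox1, at 1684, 1465 and 1774 CPM, had no order over the classes. Avpr1a ran the other way from Ptger3 and Calcr, at 51.9, 30.0 and 15.7 CPM, found in 8, 5 and 4 nuclei. These are sums over nuclei chosen by their own counts and have no test.

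The study's question of time and of tubular Bmal1 was then put to the members, with edgeR in 1 model of the 4 groups and genes with at least 5 UMIs in both libraries of a compared group. No gene passed an adjusted p of 0.05 between ZT16 and ZT4 in Ctrl (0 of 2871, 0%), between the times in cKOt (0 of 3181, 0%), between genotypes at ZT4 (0 of 2797, 0%) or between genotypes at ZT16 (0 of 3228, 0%). At an unadjusted p under 0.05 there were 196, 191, 150 and 225 genes (6.83, 6, 5.36 and 6.97% of those tested), and DESeq2 called 0 genes and had 74, 54, 33 and 54 at that limit. The sums per library were 45797 to 121423 UMIs, and the median SE of a log2 difference was 0.55 to 0.56. In TAL with at least 10 Slc12a1 UMIs, whose sums were far deeper, the same tests called 139, 58, 78 and 34 genes (0.884, 0.374, 0.509 and 0.216%). The members' counts of 0 depended on the processing. Without a filter on low counts 3, 11, 5 and 10 genes were called in the same order. A replicate block within time, described in the last section, gave 1 for genotype at ZT4 and 26 at ZT16.

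Of the macula densa and TAL lists, Ptger3 and Egf are given for the times in Ctrl because both had an unadjusted p under 0.05 there. Ptger3 was at 393 and 272 CPM in Ctrl at ZT4, 1357 and 771 in Ctrl at ZT16, 614 and 808 in cKOt at ZT4 and 1045 and 731 in cKOt at ZT16. In Ctrl both ZT16 libraries were above both ZT4 libraries, while in cKOt the times overlapped. The log2 difference in Ctrl was 1.68 ± 0.38 (edgeR adjusted p = 0.137). Egf was at 328 and 395 CPM in Ctrl at ZT4, 168 and 75.99 in Ctrl at ZT16, 246 and 186 in cKOt at ZT4 and 187 and 29.8 in cKOt at ZT16. Its Ctrl libraries at ZT16 were below those at ZT4 (log2 difference -1.70 ± 0.55, edgeR adjusted p = 0.419), and neither gene passed.

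Differences in the 4 genes of the conditions were tested over all nuclei of a library, which the conditions do not select. Over all nuclei Nos1 was at 1.53 and 3.44 CPM in Ctrl at ZT4, 1.65 and 2.62 in Ctrl at ZT16, 2.3 and 2.49 in cKOt at ZT4 and 3.25 and 2 in cKOt at ZT16, and Pappa2 at 2.41 and 5.32 CPM in Ctrl at ZT4, 1.65 and 2.88 in Ctrl at ZT16, 1.74 and 4.82 in cKOt at ZT4 and 5.77 and 3.71 in cKOt at ZT16. Groups compared overlapped for Nos1. For Pappa2 at ZT16 both cKOt libraries were above both Ctrl libraries (log2 difference 1.13 ± 0.53), which did not pass. For Ptgs2 at ZT16 both cKOt libraries (1.06 and 1.03 CPM) were below both Ctrl libraries (1.91 and 1.46), with a log2 difference of -0.61 ± 0.36 that did not pass. For Slc12a1 at ZT16 both cKOt libraries (2680 and 2460 CPM) were also below both Ctrl libraries (3068 and 2753). For Ren1 at ZT4 both cKOt libraries (2.93 and 3.78 CPM) were above both Ctrl libraries (2.68 and 2.02). How many of all genes had such an order of 2 against 2 libraries was not counted, so it is a description only. Ptgs2, Slc12a1 and Ren1 passed in none of the 4 contrasts, in which 0.208, 0.00954, 0.445 and 0.143% of genes were called.

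The circadian clock is a feedback loop of transcription. BMAL1, the product of Arntl, pairs with a partner such as NPAS2 and binds E-boxes in front of the Per, Cry and Nr1d genes and of output genes such as Dbp and Tef. PER and CRY proteins then inhibit the pair, while REV-ERB proteins, of which Nr1d2 encodes 1, repress Arntl and Npas2 through ROR elements. Reads of Arntl from the 3′ end need not fall in the deleted stretch, and the sources used here do not locate it, so the Arntl level is no check of the deletion.

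RefSeq promoter windows of GRCm38.p6, from 250 bases before to 50 after a gene's start, are shown for 3 genes on which the values below turn: the BMAL1 gene, its repressor Nr1d2 and the D-box gene Per3. Capitals mark matches to the ROR element core AGGTCA or the D-box TTATGNAA on either strand. No E-box CACGTG was found in these 3 windows, which says only that these letters are not there. The windows are chr7:113207261-113207560 (+), chr14:18239057-18239356 (-) and chr4:151044616-151044915 (-), each printed 5′ to 3′ on the gene's strand.
Arntl: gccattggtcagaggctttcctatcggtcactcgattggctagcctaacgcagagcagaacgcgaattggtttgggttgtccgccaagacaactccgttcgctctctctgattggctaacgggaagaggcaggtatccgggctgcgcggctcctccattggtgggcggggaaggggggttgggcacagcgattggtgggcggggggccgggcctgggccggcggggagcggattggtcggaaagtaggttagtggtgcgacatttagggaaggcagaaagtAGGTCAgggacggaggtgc
Nr1d2: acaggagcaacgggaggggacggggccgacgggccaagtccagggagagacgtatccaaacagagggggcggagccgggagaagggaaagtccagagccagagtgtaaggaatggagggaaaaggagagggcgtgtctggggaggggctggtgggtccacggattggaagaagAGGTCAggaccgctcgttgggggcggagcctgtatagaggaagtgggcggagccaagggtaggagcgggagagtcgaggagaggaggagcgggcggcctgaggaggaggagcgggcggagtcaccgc
Per3: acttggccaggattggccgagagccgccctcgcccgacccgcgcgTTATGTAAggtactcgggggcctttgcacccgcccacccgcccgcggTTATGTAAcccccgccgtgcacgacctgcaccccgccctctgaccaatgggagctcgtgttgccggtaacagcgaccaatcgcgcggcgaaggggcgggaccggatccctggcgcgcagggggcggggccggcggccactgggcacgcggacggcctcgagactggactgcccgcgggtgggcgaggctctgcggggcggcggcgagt
The Arntl window holds AGGTCA beginning 31 bases after the start (the window of the other listed Arntl start, chr7:113207215-113207514, ends before it and has no match), that of Nr1d2 beginning 77 bases before it, and that of Per3 the D-box beginning 205 and 158 bases before it. Of 17 clock genes of the list with a window (20 listed, 23 windows), 26.1% of windows held an E-box, 8.70% a D-box and 21.7% the ROR core, against 7.15, 3.38 and 16.3% of the 32851 windows counted, 7.14, 2.14 and 10.4% of 280 windows of genes higher in the members under all 6 settings, and 7.02, 3.33 and 13.5% of 541 windows of genes lower. The windows counted leave out those of a chromosome set aside beforehand. They cover 191 of the higher genes and 369 of the lower. An E-box overlapped a ROR core in 64 windows and a D-box a ROR core in 3. A match is a description of letters and not a bound site.

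Arntl in the members was at 21.8 and 8.24 CPM in Ctrl at ZT4, 235 and 152 in Ctrl at ZT16, 35.1 and 10.9 in cKOt at ZT4 and 136 and 134 in cKOt at ZT16, from 1 and 1, 14 and 14, 2 and 1, and 16 and 9 UMIs. In TAL with at least 10 Slc12a1 UMIs it was at 11.6 and 8.11 CPM in Ctrl at ZT4, 172 and 163 in Ctrl at ZT16, 298 and 219 in cKOt at ZT4 and 287 and 262 in cKOt at ZT16. So in Ctrl both kinds of nuclei were low at ZT4 and high at ZT16, whereas in cKOt at ZT4 the TAL was high and the members were low. In the members the ZT16 libraries were above the ZT4 libraries in both genotypes (log2 difference 3.77 ± 0.78 in Ctrl, edgeR adjusted p = 0.137; 2.62 ± 0.74 in cKOt, adjusted p = 0.395). In TAL the difference between times was 4.14 ± 0.21 in Ctrl (adjusted p = 3.46e-07) and 0.10 ± 0.16 in cKOt (adjusted p = 0.895), and the genotype difference at ZT4 was 4.77 ± 0.21 (adjusted p = 3.08e-08). The members' Arntl was below the count minimum for the test of genotype at ZT4.

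Nr1d2, the repressor of Arntl, is out of phase with it and rests on more UMIs at ZT4. It was at 131 and 132 CPM in Ctrl at ZT4, 0 and 10.9 in Ctrl at ZT16, 175 and 153 in cKOt at ZT4 and 8.49 and 14.9 in cKOt at ZT16 in the members, from 6 and 16, 0 and 1, 10 and 14, and 1 and 1 UMIs. In TAL it was at 162 and 174 CPM in Ctrl at ZT4, 29.4 and 31.1 in Ctrl at ZT16, 34.3 and 41.3 in cKOt at ZT4 and 7.3 and 14.1 in cKOt at ZT16. The cKOt members at ZT4 were thus above the Ctrl members, while cKOt TAL was far below Ctrl TAL. The genotype difference at ZT4 was 0.28 ± 0.53 in the members (edgeR adjusted p = 0.992) and -2.13 ± 0.21 in TAL (adjusted p = 0.000204). Between the times the members' difference was -4.07 ± 0.91 in Ctrl (adjusted p = 0.137) and -3.74 ± 0.78 in cKOt (adjusted p = 0.103).

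**Figure D4:**
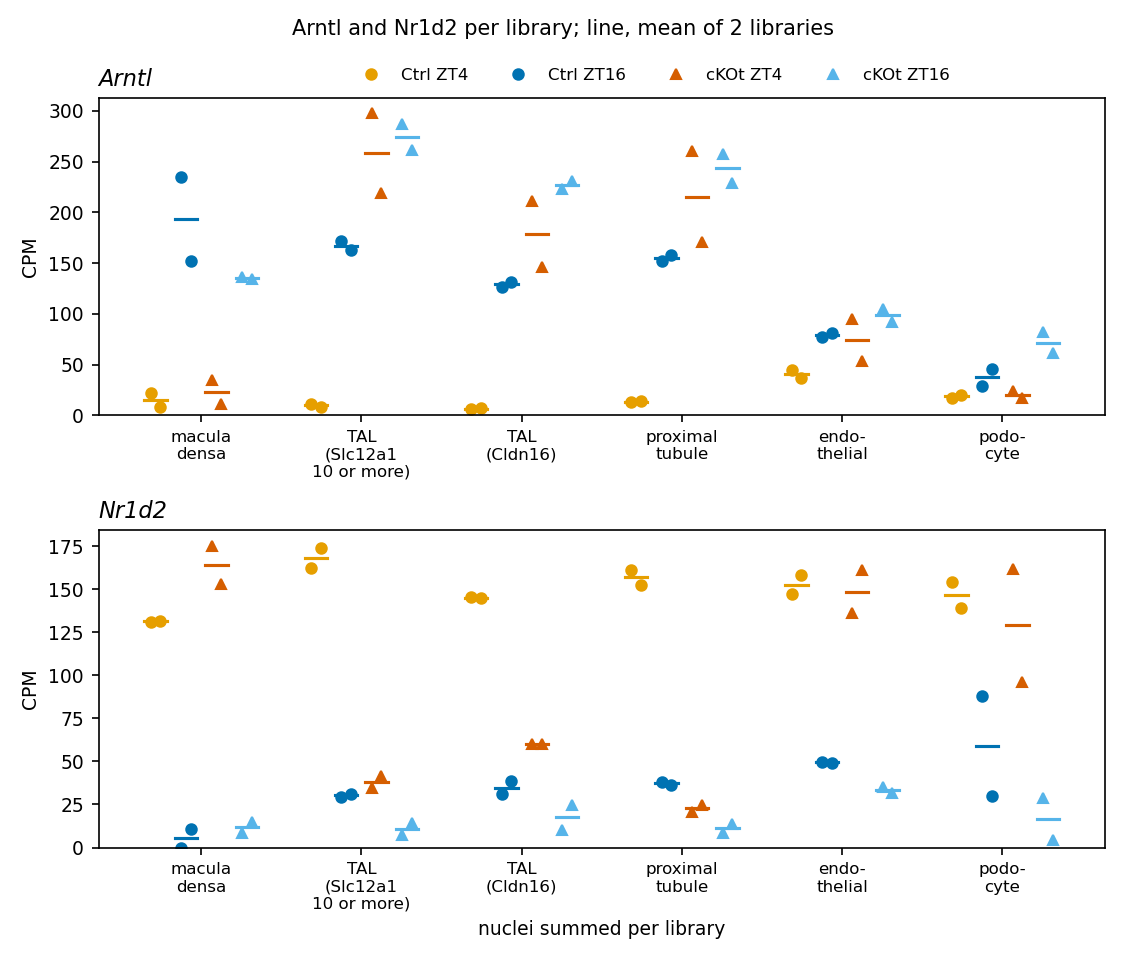
Level of Arntl (top) and Nr1d2 (bottom) in CPM (y axis) in 6 kinds of nuclei (x axis), 1 point for each library, with a line at the mean of the 2 libraries of a group. Circles are Ctrl and triangles cKOt. At ZT4 the cKOt points (orange triangles) of macula densa lie beside the Ctrl points for both genes, while those of TAL and proximal tubule lie apart from them.

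At ZT4 in cKOt at least 1 Arntl UMI was found in 3 of 36 nuclei (8.33%, 95% exact binomial interval 1.75 to 22.5%) of the members, against 1396 of 2410 nuclei (57.9%, 95% exact binomial interval 55.9 to 59.9%) of TAL and 70.5% of proximal nuclei. In Ctrl at ZT4 the members' share was 5.71% and that of TAL 3.45%. Thinned to 2000 UMIs a nucleus, with 4 members and 160 TAL nuclei left out as shallower, the shares in cKOt at ZT4 were 2.53% and 37.7%. For Nr1d2 they were 36.1% of members and 13.7% of TAL, and after thinning 24.3% and 6.76%. The thinned share of the members for Arntl corresponds to less than 1 nucleus of 32. Podocytes, which are not tubule, had an Arntl UMI in 8.25% of nuclei in cKOt at ZT4. Median depth there was 3533 UMIs in the members and 3966 in TAL. Nuclei of 1 library are not replicates, and the intervals cover counting error only. Without doublets and members with fewer than 10 Slc12a1 UMIs (116 left), Arntl was at 38.4 and 0 CPM in Ctrl at ZT4, 235 and 152 in Ctrl at ZT16, 29.6 and 0 in cKOt at ZT4 and 122 and 159 in cKOt at ZT16, and Nr1d2 at 115 and 116 CPM in Ctrl at ZT4, 0 and 10.9 in Ctrl at ZT16, 118 and 152 in cKOt at ZT4 and 11.1 and 0 in cKOt at ZT16. At ZT4 the cKOt members without them stayed low in Arntl and high in Nr1d2. The part of other cells' RNA in the remaining values was not tested.

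Other kinds of nuclei, defined after these values had been seen, are set beside the members for cKOt at ZT4. Mean Arntl there was 23 ± 17.1 CPM (SD, n = 2) in the members, 179 ± 46.1 in TAL with Cldn16, 215 ± 63.4 in proximal tubule, 74.2 ± 29.3 in endothelium and 20.4 ± 4.84 in podocytes. Mean Nr1d2 was 164, 60.3, 22.8, 149 and 129 CPM in the same order. In both genes the members' mean was nearer to podocytes and endothelium than to the tubule segments, with no test. Just outside the threshold, with Nos1 and a sum of 2, mean Arntl was 72.9 CPM and mean Nr1d2 29.2, from 7 nuclei, and with a sum of 1, 194 and 45.9, from 46.

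Of 20 clock genes listed, 10 were called between genotypes at ZT4 in TAL with at least 10 Slc12a1 UMIs, 5 higher and 5 lower in cKOt. In the members only 5 of the 20 reached the count minimum for that test, and none of the 5 was called. Nfil3, another of the 10, had no UMI in the members at ZT4, so nothing can be read from it. Nr1d1, a paralog of Nr1d2 that was lower in cKOt TAL (-1.86 ± 0.33), was at 21.8 and 32.9 CPM in the Ctrl members at ZT4 and 17.5 and 21.8 in the cKOt members, from 5 and 3 UMIs. Its lower Ctrl value and higher cKOt value were the same to 3 digits. Per3, lower in cKOt TAL (-1.76 ± 0.16), was at 87.3 and 90.6 CPM in Ctrl at ZT4, 16.8 and 54.3 in Ctrl at ZT16, 70.2 and 109 in cKOt at ZT4 and 25.5 and 0 in cKOt at ZT16 in the members. Dbp, also lower in cKOt TAL (-2.75 ± 0.31), was at 0 and 24.7 CPM in Ctrl at ZT4, 0 and 0 in Ctrl at ZT16, 35.1 and 32.7 in cKOt at ZT4 and 0 and 0 in cKOt at ZT16, from 3 UMIs in Ctrl and 5 in cKOt at ZT4. Per3 overlapped between the genotypes at ZT4, and Dbp was above Ctrl in both cKOt libraries, from few UMIs. Npas2, the partner of BMAL1 that was higher in cKOt TAL (5.15 ± 0.22), was at 21.8 and 0 CPM in Ctrl at ZT4, 0 and 65.1 in Ctrl at ZT16, 105 and 0 in cKOt at ZT4 and 67.96 and 179 in cKOt at ZT16. It was uneven between replicates and gives no clear order. Cry1 was at 21.8 and 16.5 CPM in Ctrl at ZT4, 83.8 and 54.3 in Ctrl at ZT16, 0 and 21.8 in cKOt at ZT4 and 33.98 and 29.8 in cKOt at ZT16. At ZT4 Cry1 was low in the members of either genotype, from only 3 UMIs in Ctrl and 2 in cKOt. TAL of cKOt was there higher than that of Ctrl (3.37 ± 0.25). Tef was at 218 and 98.8 CPM in Ctrl at ZT4, 101 and 54.3 in Ctrl at ZT16, 140.3 and 87.3 in cKOt at ZT4 and 25.5 and 14.9 in cKOt at ZT16.

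Whether the genotype effect at ZT4 differed between members and TAL was tested as an interaction across all genes, a test added after seeing the values. For Arntl the log2 difference of differences was -2.98 ± 1.55 (edgeR adjusted p = 1), or -4.03 ± 1.62 with the TAL group of at least 10 Slc12a1 UMIs (adjusted p = 1). For Nr1d2 it was 2.38 ± 0.65 (adjusted p = 0.417), or 2.45 ± 0.63 (adjusted p = 0.17). No clock gene passed, in a term that called 0.0233% of genes, or 0.0129% with TAL of at least 10. For the time effect in cKOt the terms were 2.64 ± 0.84 for Arntl and -2.24 ± 1.06 for Nr1d2 (adjusted p = 0.892 and 1). The terms for time in Ctrl, genotype over both times, genotype at ZT16 and time in cKOt called no clock gene either, of 0.0408, 0.0117, 0.0408 and 0.0583% of genes called, or 0.0257, 0.00643, 0.045 and 0.0901% with TAL of at least 10. The values of the members against TAL are therefore given as a description, from 2 libraries a group with few UMIs.

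A single gene passed in the members' own contrasts: Pik3c2g, a class II phosphoinositide 3-kinase, whose time effect differed between the genotypes (1 of 3616, 0.0277%, with 6.28% at an unadjusted p under 0.05). It was at 153 and 98.8 CPM in Ctrl at ZT4, 16.8 and 32.6 in Ctrl at ZT16, 17.5 and 10.9 in cKOt at ZT4 and 204 and 224 in cKOt at ZT16. The Ctrl libraries were higher at ZT4 and the cKOt libraries at ZT16, without overlap (log2 difference of the time effects 5.95 ± 1.01, edgeR adjusted p = 0.0303). It was not called by DESeq2 or under stricter or looser conditions, and was below the count minimum without doublets. Leaving out 1 library ended the call for every library but Ctrl ZT4 replicate 2 (edgeR adjusted p = 0.0544 to 0.237). Each library held 1 to 24 of its UMIs. The proximal tubule markers of the members were at 2729 and 1095 CPM in Ctrl at ZT4, 972 and 738 in Ctrl at ZT16, 1701 and 840.3 in cKOt at ZT4 and 2480.4 and 2149 in cKOt at ZT16, also higher at ZT4 in Ctrl and at ZT16 in cKOt, though the order of the libraries differed, and of 6 tested Lrp2, Slc34a1 and Slc5a12 had an unadjusted p under 0.05 for this term (median log2 difference 1.76 over the 6, all genes 0.01). In cKOt at ZT16, 1 nucleus of replicate 1 held 182 of the 292 proximal marker UMIs and 1 of replicate 2 held 82 of 144. Their part in the result was not tested.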

How the data were processed

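Members and gene lists were chosen with earlier results of these data known. Per the labels and methods, the authors made libraries with the 10x 3′ v3.1 kit and processed them with bcl2fastq 2.20 and Cell Ranger 7.1.0. The deposited files hold UMI counts per gene and nucleus, not normalized. The build is given as GRCm39 in the labels and mm10 in the methods, and the sources used here do not say whether introns were counted. Nuclei needed 500 genes, 800 UMIs and at most 2% mitochondrial UMIs, and the 8 libraries held 36548873 to 54500820 UMIs in such nuclei. Scrublet (scanpy 1.11.5) called doublets at an expected rate of 8% without removing them. Counts were summed per library and kind of nuclei and tested with edgeR 4.0.16 (quasi-likelihood, TMM, Benjamini-Hochberg limit 0.05), between groups for genes with 5 counts in both libraries of a group, and between macula densa and TAL for genes with 5 counts in over 50% of libraries of either, with the library as a block. DESeq2 1.42.0 was an alternative. Shares were tested by exact permutation. Named genes were those of the conditions and lists. Added to them were the 12 called per direction of smallest p between macula densa and TAL, and 5 lncRNAs per direction. Each of these added genes had the same sign in all 8 libraries. Steps across genes were tested on simulated data. For macula densa against TAL, a larger share of the simulated calls fell on unchanged genes than the limit of 0.05. Between groups of members, most simulated 2-fold changes were missed. Replicates differed beyond sampling noise in every group. Biotypes came from GENCODE by gene ID. Intervals cover counting error only. Some genes of the lists enter the counts but are not reported here by name.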

Additional observations from a re-analysis of the deposited data

Results flagged for a closer look

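Of the results for the members, 31 differed between groups by a test of the difference itself. The gap test for a sample far from the others needs at least 4 samples, so with 2 libraries a group it was run only on the share of nuclei over the 4 libraries of a genotype or of a time, where none was beyond the limit. The distal marker sum of the members of cKOt at ZT4, replicate 1, which that test did not cover, was 4788 CPM, against 338 CPM in its replicate. The time effect of Pik3c2g differed between cKOt and Ctrl members by 5.95 on the log2 scale. It is a kinase gene with 1 to 24 UMIs a library. Beside it stand the proximal tubule markers of the members, of which 3 of 6 tested had an unadjusted p under 0.05 for the same term, with 182 of 292 UMIs in 1 nucleus of cKOt ZT16 replicate 1 and 82 of 144 in 1 nucleus of replicate 2. Their part in the result was not tested.

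The time effect in Ctrl differed between members and TAL for 7 genes, all with a lower difference in the members: Adgrl4 (-12.96), Tshz2 (-3.50), Prkg1 (-3.23), Flt1 (-4.27), Gm42397 (-3.34), Chrm3 (-4.18) and Dock4 (-2.96). Flt1 and Adgrl4 are endothelial genes, and Adgrl4 had no UMI in the Ctrl members at ZT16, so its fitted value depends on the prior count and is no bound. Beside these calls stand the endothelial markers of the members, of which 1 nucleus held 35 of 37 UMIs in Ctrl at ZT4, replicate 1, and another 25 of 37 in replicate 2. Without doublets none of the 7 was called, and their part in the result was not tested further.

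The genotype effect over both times differed between members and TAL for Slc8a1 (1.57), a sodium-calcium exchanger of the distal tubule, and Adarb2 (-1.90). Neither gene was called without doublets or by DESeq2. At ZT4 alone it differed for Slc8a1 (2.92), Slc12a3, the sodium chloride cotransporter of the distal tubule (2.83), Negr1 (3.82) and Adamtsl1 (2.68). Of the Slc8a1 UMIs, 212 were in cKOt at ZT4, replicate 1, the library where 1 nucleus held 244 distal marker UMIs.

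At ZT16 it differed for Erc2 (2.75), Fut9 (2.11), Rnf152 (12.17), Dkk2 (12.47), Gm42397 (3.14), Luzp2 (-2.13) and Pik3c2g (3.09), where Rnf152 and Dkk2 had no UMI in the Ctrl members, so their values are no bounds. The time effect in cKOt differed for Slc8a1 (-3.04), Adamtsl1 (-5.16), Slc12a3 (-4.01), Emcn (-4.04), Plpp1 (-5.00), Ldb2 (-2.42), Pik3c2g (3.85), Cyp7b1 (-2.12), Dab2 (1.81) and Adgrl4 (-11.90, no bound, with no UMI in the cKOt members at ZT16). Emcn and Adgrl4 are endothelial genes, and 1 nucleus of cKOt ZT4 replicate 2 held 46 of its 52 endothelial marker UMIs. Proximal marker UMIs lay as given for Pik3c2g. DESeq2 called 0 genes in these 3 terms, and without doublets 0, 2 and 0 were called.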

How the results depend on the processing

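Between macula densa and TAL, 66 genes were followed through the alternatives: those named by smallest p, the lncRNAs, and list genes called in all 6 settings, whose stability is thus partly set by that choice. All 66 kept their direction and 62 their side of the threshold. List genes outside these 66 did not all do so, and Igfbp5, Ntn1 and Prkg1, among others, changed direction with the TAL group. The counts moved more. Calls between macula densa and TAL numbered 2571 in the main comparison, 1556 with DESeq2, 1583 against TAL with Cldn16, and 1447 and 1443 against TAL matched on UMIs (at least 3 or 10 Slc12a1 UMIs). Calls higher in the members numbered 826 with library totals, and 979 with totals and TAL of at least 10. Calls lower numbered 854 with DESeq2, 1215 with RLE factors, 1100 with Cldn16, 983 and 936 with matched TAL, and 1123 and 933 with totals. Leaving out 1 library gave 1904 to 2416 calls (2055 to 2240 with TAL of at least 10), 465 to 572 higher (483 to 589) and 1403 to 1844 lower (1511 to 1683). The cause was not tested.

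Without a filter on low counts, 3, 11, 5, 10 and 10 genes were called for time in Ctrl, time in cKOt, genotype at ZT4, genotype at ZT16 and their interaction. Genotype at ZT16 had 1 call without doublets and 2 with the replicate block. The interaction had 0 calls with DESeq2, without doublets, with stricter or looser conditions, and with at least 10 Slc12a1 UMIs and no doublets. Leaving out 1 library gave 0 to 0, 0 to 7, 0 to 5, 0 to 12 and 0 to 7 calls in the same order, and 0 to 0 over all nuclei for the genes of the conditions. Deviations of same-numbered replicates correlated at 0.113 and 0.104 between genotypes at the same time in the members, 0.327 and 0.300 in TAL and 0.311 and 0.311 over all nuclei, and lower or negatively between times, a hint from the data with only 2 numbers and no label behind it. The replicate block changed no other call of these 5 contrasts, and in TAL with at least 10 Slc12a1 UMIs gave 185, 78, 91, 43 and 9 calls against 139, 58, 78, 34 and 8. A replicate block within time, added after seeing the data and with 2 residual degrees of freedom, gave 1, 26 and 19 calls in the members for genotype at ZT4, at ZT16 and the interaction, no clock gene among them, and 176, 159 and 28 in TAL. The proximal markers Lrp2, Slc34a1 and Slc5a12 were among the 26.

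The time difference between members and TAL had 7 calls, and 0 with DESeq2, without doublets, with the replicate block and without doublets at 10 Slc12a1 UMIs, 2 under stricter and 18 under looser conditions, and 4, 15 and 4 with TAL of at least 10, matched or by totals. Leaving out 1 library gave 0 to 45 (0 to 11 with TAL of at least 10). Under looser conditions Tshz2 was at 0.31. The genotype difference had 2 calls, and 0 with DESeq2, without doublets, under stricter conditions, with the replicate block and without doublets at 10 Slc12a1 UMIs, 4 with RLE factors, 4 with Cldn16, 7 and 4 with matched TAL, and 1 and 1 with TAL of at least 10 and its totals. Leaving out 1 library gave 0 to 10 (0 to 9), and without cKOt ZT4 replicate 1 Slc8a1 was at -0.0128 with TAL of at least 10. At ZT4 that difference had 4 calls, and 0 with DESeq2, without doublets, under stricter conditions, with the replicate block and without doublets at 10 Slc12a1 UMIs, 8 with RLE factors, 31 under looser conditions, 9 with Cldn10, 9 with matched TAL, 7 with totals and 2 with TAL of at least 10. At ZT16 it had 7 calls, and 0 in the same 5 settings but for 2 without doublets, and 12 with Cldn16. The time difference in cKOt had 10 calls, and 0 with DESeq2, without doublets and with the replicate block, 1 without doublets at 10 Slc12a1 UMIs, 5 under stricter and 16 under looser conditions, 19 with Cldn16 and 16 with TAL of at least 10 by totals. Leaving out 1 library gave 0 to 14, 0 to 10 and 2 to 16 calls in these 3 (0 to 8, 0 to 10 and 8 to 16 with TAL of at least 10). Without cKOt ZT4 replicate 1 and with TAL of at least 10, Slc8a1 was at -0.0581 for genotype at ZT4 and 0.189 for time in cKOt. Adamtsl1 at ZT4 was at -1.60 without doublets, and at -0.863 to 13.9 on leaving out 1 library (-0.90 without cKOt ZT4 replicate 1 and with TAL of at least 10). Without doublets at 10 Slc12a1 UMIs, Adamtsl1 was at -1.99 and Slc12a3 at -0.136 for genotype at ZT4, Fut9 at -0.0606 and Pik3c2g at -2.08 for genotype at ZT16, and Ldb2 at 0.277, Pik3c2g at -1.78, Cyp7b1 at 0.122 and Dab2 at -0.533 for time in cKOt. Ldb2 was at 0.26 without doublets. For clock genes, 1 was called for the genotype effect at ZT4 under looser conditions and 1 against TAL with Cldn10, and 0 to 0 on leaving out 1 library.

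The difference in the share of nuclei between genotypes was 0.00981 percentage points. It was -0.0304 after thinning (exact p = 0.429), -0.0143 under stricter conditions (exact p = 0.714), and -0.00843 to 0.0374 on leaving out 1 library. The time difference of -0.0271 was -0.346 with nuclei of at least 3 Slc12a1 UMIs as the denominator, and -0.366 with such members alone, an alternative chosen after seeing the data (exact p = 0.0286 in both, the smallest that 4 against 4 allows), and -0.0497 to -0.00573 on leaving out 1 library. With 45797 to 121423 UMIs a library, 2797 to 3228 genes reached the count minimum for a contrast between 2 groups of members.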
